A study of Mus musculus with 12 samples.

Results

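Ngfr, Axl, Egfr, Sox9, Sox2, Wnt5a, Tnc, Zeb1, Zeb2 and Jun are 10 genes whose expression is used to describe neural crest-like, dedifferentiated and invasive states of melanoma cells. They were taken by symbol from the 23420 genes of the deposited count table, by a rule that uses no measured value, and they were chosen with earlier results of these data known. Sox2 had no count in any tumor. The other 9 were among the 13095 genes tested, and 6 comparisons of these 9 genes gave 54 tests.

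Melanoma cells can leave a pigmented, melanocytic state, which the transcription factors Mitf and Sox10 maintain, for a state with features of the neural crest or of migrating mesenchymal cells. In that state, surface receptors such as Ngfr, Axl and Egfr, noncanonical Wnt signaling through Wnt5a, matrix proteins such as tenascin C and transcription factors such as Zeb1, Sox9 and AP-1 are characteristic, and loss of pigment genes and tolerance to therapy are known features. Most of these genes are also used by normal cells found in tumors: macrophages carry Axl, and fibroblasts carry Egfr, Tnc and Zeb1.

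To compare tumors across diet and treatment, RNA was sequenced from 12 subcutaneous B16-F10 tumors, 3 from each of 4 groups. All mice were C57BL/6J males, entered the diets at 4 to 5 weeks of age and carried B16-F10 cells, a C57BL/6 mouse melanoma cell line, in the right flank. Obese mice had received a Western diet with 0.2% added cholesterol for 15 weeks, and nonobese mice a matching control diet. Once tumors were palpable, both diets were given anti–PD-1 or isotype control antibody intraperitoneally at 10 mg/kg, 3 times a week, and tumors were collected on day 16. A single transplanted cell line was used, and each library was made from bulk tumor that also contained host cells. The labels number the tumors as replicates of a group without stating that each came from a separate mouse, so P values measure the spread between these samples.

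The tumors had between 14022929 and 33871843 counts on genes. Levels are given as CPM, the counts scaled to a common library size by TMM, and values in the order of replicates 1, 2 and 3. Differences are log2 fold changes with their standard error (SE) from edgeR's quasi-likelihood test of all 13095 genes, with 12 tumors in a single model. Following the thresholds of the study, a gene was called upregulated or downregulated where its level differed more than 2-fold and its unadjusted P was below 0.05. The Benjamini-Hochberg adjusted P over all genes tested is given as FDR, and each call here rests on the unadjusted P. None of the 9 genes had an FDR below 0.05 in any of the 6 comparisons with edgeR as described. Axl did so in 3 of them with DESeq2 and with some other settings of edgeR. At an unadjusted P below 0.05 alone, 4 of the 9 passed for anti–PD-1 in nonobese mice and 2 in obese mice, against 5.23% and 7.57% of all genes. Between diets, 3 passed under isotype, 2 under anti–PD-1 and 3 as a mean, against 13.3%, 10.3% and 10.4%, and 3 passed for the difference between responses, against 12.9%. Of all genes, 0.382% had an FDR below 0.05 between diets under anti–PD-1, 0.183% as a mean and 0% in the other comparisons. The 6 comparisons share groups of tumors and are not independent of each other. In bulk tumors, a lower level of a gene cannot be told apart from fewer cells of the type that expresses it.

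Per kb of exon, all 10 genes were less abundant than the 11 genes examined that mark the melanocytic state. By this measure, the mean levels over the 12 tumors were 14.7 CPM per kb for Jun, 8.02 for Axl, 6.73 for Zeb2, 4.74 for Tnc and 2.88 for Sox9. Zeb1 followed with 0.579 CPM per kb. Egfr, Ngfr and Wnt5a were near the lower end of the tested genes, with 0.121, 0.0874 and 0.0750 CPM per kb. By the same measure, the melanosome protein gene Pmel reached 3935, the pigment enzyme genes Tyrp1 and Dct 2707 and 1386, and Sox10 and Mitf 276 and 73.0 CPM per kb. Among the genes tested, Jun, Axl and Zeb2 were at percentiles 73.5, 58.4 and 54.1 by this measure. Pigment genes were thus abundant in these bulk tumors, and the name of a dedifferentiated and invasive state is taken here as describing the genes, since no dedifferentiated tumor was measured for comparison.

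**Figure D1:**
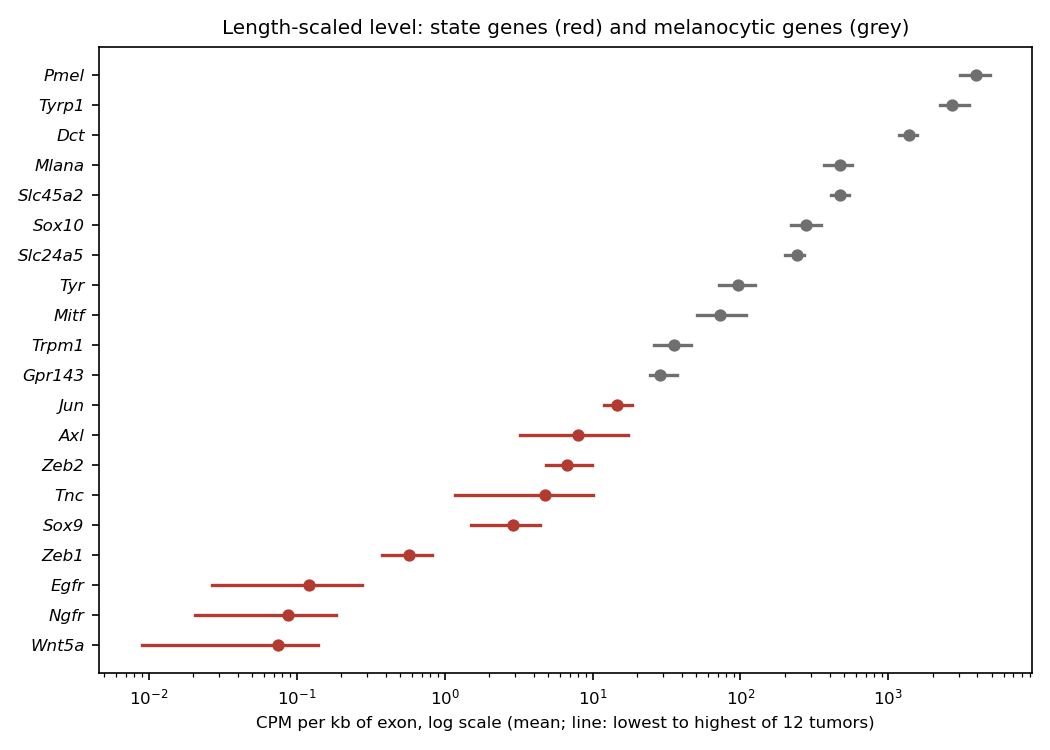
Level per kb of exon, as CPM per kb on a log axis, for 9 state genes (red) and 11 melanocytic genes (grey). Points are means of 12 tumors and lines run from the lowest to the highest tumor. Sox2, with 0 counts, is not drawn. Jun, the highest state gene at 14.7, lies below Gpr143, the lowest melanocytic gene shown, at 28.8.

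Several neighbors in this order could not be separated by their spread. Axl exceeded Zeb2 per kb in 8 of 12 tumors, with a mean log2 ratio of 0.11 ± 0.78 (SD). Tnc exceeded Sox9 in 8 of 12 tumors and Zeb2 exceeded Tnc in 9 of 12. The low genes Egfr, Ngfr and Wnt5a overlapped in the same way, with the higher neighbor ahead in 7 of 12 tumors for both pairs. In contrast, Jun exceeded Axl in 11 of 12 tumors, and Sox9 exceeded Zeb1, and Zeb1 exceeded Egfr, in 12 of 12. The genes also differed in how much they varied: the highest tumor was 1.55 times the lowest for Jun and 2.05 times for Zeb2, but 5.41 times for Axl, 8.57 times for Tnc, 9.07 times for Ngfr, 10.3 times for Egfr and 15.6 times for Wnt5a, the last 3 on low counts.

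Among the receptors, Axl was the most abundant. It encodes a TAM family receptor tyrosine kinase that binds Gas6 and lies at chr7:25757273-25788705 on the minus strand of GRCm38. Nonobese isotype tumors had 37.2, 49.0 and 44.7 CPM, and nonobese anti–PD-1 tumors 16.98, 24.6 and 31.6 CPM. Obese isotype tumors had 34.0, 16.2 and 32.4 CPM, and obese anti–PD-1 tumors 41.5, 87.5 and 68.8 CPM. The anti–PD-1 tumors were thus below the isotype tumors in nonobese mice and above them in obese mice, with no overlap in either diet. The counts behind these values ranged from 231 to 1778.

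Egfr, the receptor for epidermal growth factor, lies at chr11:16752203-16918158 on the plus strand. Its levels were 0.996, 1.70 and 2.84 CPM in nonobese isotype tumors and 0.305, 0.588 and 0.847 CPM in nonobese anti–PD-1 tumors, again without overlap. Obese isotype tumors had 1.39, 0.350 and 1.48 CPM, and obese anti–PD-1 tumors 0.776, 2.02 and 3.15 CPM. The groups of obese mice overlapped, and 1 tumor had as few as 5 counts. Ngfr encodes the low-affinity neurotrophin receptor CD271, a neural crest marker. It had 1 to 18 counts per tumor and 0.0705 to 0.639 CPM, with overlapping groups in every comparison.

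Wnt5a, a ligand of noncanonical Wnt signaling that acts through Ror receptors, lies at chr14:28504750-28527448. It had 0.867, 1.03 and 0.909 CPM in nonobese isotype tumors and 0.153, 0.340 and 0.401 CPM in nonobese anti–PD-1 tumors. Obese isotype tumors had 1.09, 0.0699 and 0.286 CPM, and obese anti–PD-1 tumors 0.493, 0.344 and 1.05 CPM. Only the nonobese groups were separate, and the values rest on 1 to 35 counts. Tnc, which encodes the matrix glycoprotein tenascin C and lies at chr4:63959785-64047015, was counted far more deeply, with 130 to 2167 counts. Its levels were 33.1, 63.7 and 77.9 CPM in nonobese isotype tumors and 15.1, 12.3 and 29.7 CPM in nonobese anti–PD-1 tumors. In obese mice they were 48.7, 9.09 and 32.2 CPM with isotype and 17.9, 40.4 and 62.0 CPM with anti–PD-1. The nonobese groups did not overlap, and the obese groups did.

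The transcription factors varied less. Zeb1, a repressor of epithelial genes that binds E-boxes, was 6.52, 6.73 and 7.16 CPM in nonobese isotype tumors and 3.86, 4.79 and 5.62 CPM in nonobese anti–PD-1 tumors. In obese mice it was 6.60, 3.99 and 6.54 CPM with isotype and 4.30, 6.74 and 8.44 CPM with anti–PD-1. The obese groups overlapped. Its relative Zeb2, which melanocytes normally express and which declines when Zeb1 takes over in dedifferentiated melanoma, had a mean level of 6.73 CPM per kb, against 0.579 for Zeb1. Zeb2 ranged from 96.9 to 134.4 CPM in nonobese isotype tumors, 100.1 to 135.7 CPM in nonobese anti–PD-1 tumors, 127.2 to 198.9 CPM in obese isotype tumors and 138.7 to 149.1 CPM in obese anti–PD-1 tumors. It lies at chr2:44983632-45117395 on the minus strand.

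Sox9, a neural crest and stem cell factor at chr11:112782224-112787760, had 10.4, 10.6 and 6.42 CPM in nonobese isotype tumors and 15.5, 17.5 and 18.3 CPM in obese isotype tumors. With anti–PD-1 it had 10.1, 10.6 and 9.27 CPM in nonobese mice and 6.27, 15.3 and 12.6 CPM in obese mice. Obese isotype tumors were above every tumor of the other groups. Jun, an AP-1 subunit at chr4:95049034-95052222, ranged from 37.8 to 49.7 CPM in nonobese mice and from 39.2 to 58.6 CPM in obese mice, so the diets overlapped.

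Sox2, a pluripotency and neural crest factor at chr3:34650405-34652461, had 0 of 272866566 counts over the 12 tumors. A count of 0 allows up to 3 counts per tumor, which is 0.0882 to 0.212 CPM depending on the library. Sox2ot, the noncoding gene on the same strand that contains Sox2, had 1 count. Antisense genes overlap Egfr, Wnt5a, Tnc, Zeb1, Zeb2 and Jun in the annotation. The libraries were stranded, but whether HTSeq used the strand is not given in the sources used here, so reads from the antisense partner cannot be told apart for these 6 genes.

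**Figure D2:**
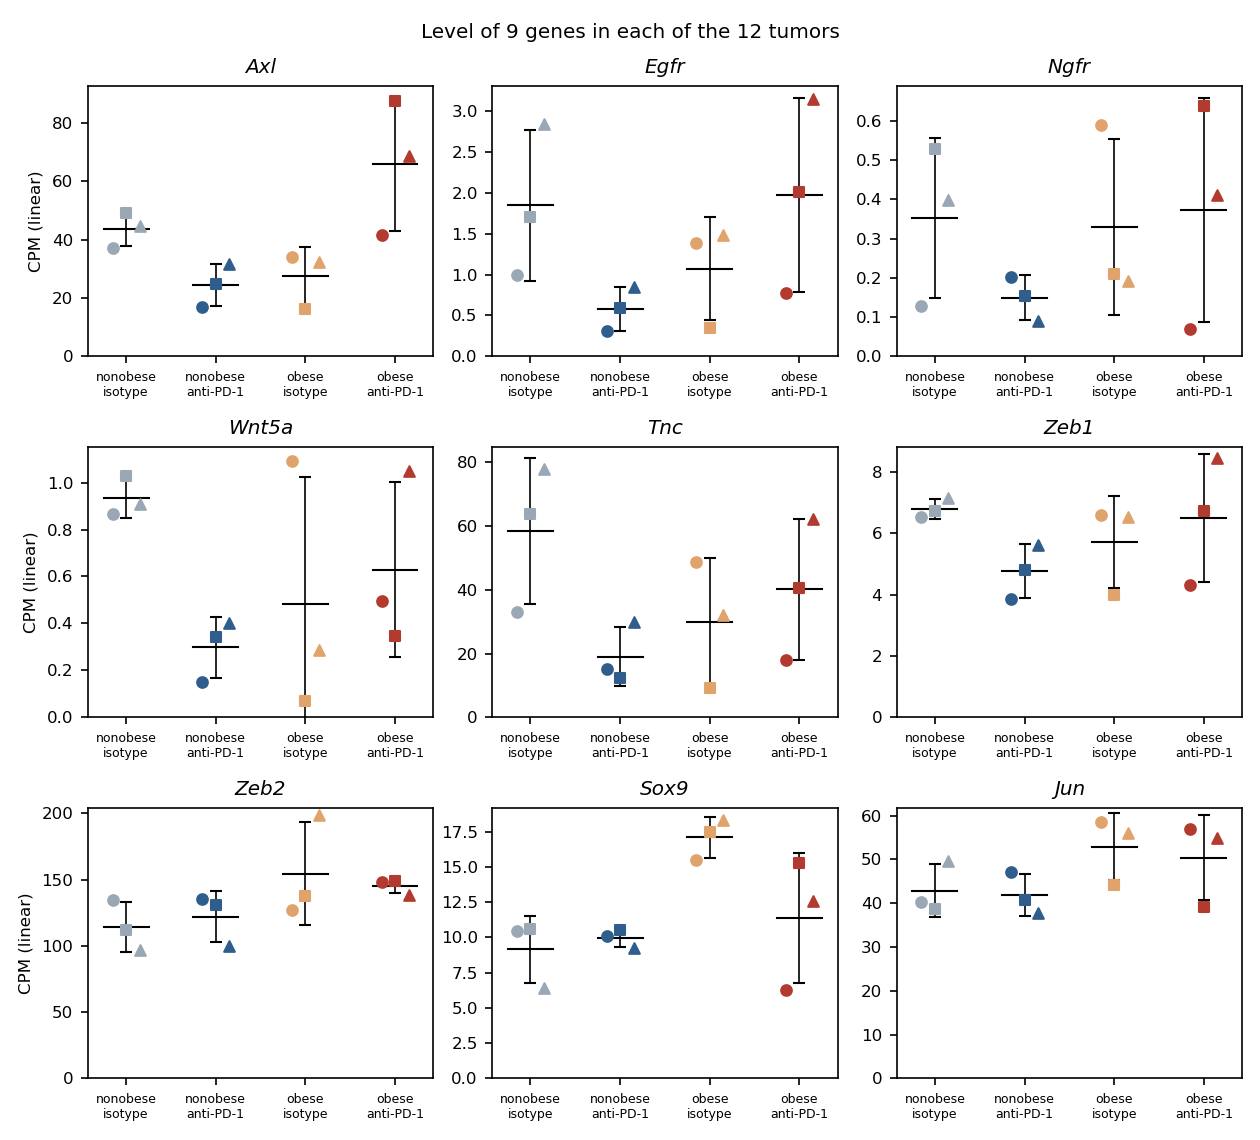
CPM on linear axes from 0 in each of the 12 tumors for 9 genes, by group. Circles, squares and triangles are replicates 1, 2 and 3, horizontal lines are means and vertical bars are 1 SD (n = 3), cut at 0 for Wnt5a in obese isotype tumors. Axl, Egfr, Wnt5a, Tnc and Zeb1 are lower in all 3 nonobese anti–PD-1 tumors than in any nonobese isotype tumor, and Sox9 is highest in obese isotype tumors.

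Promoter sequence from the RefSeq table (GRCm38.p6) was examined for 7 of the 10 genes. That of Zeb1 was left out, and no entry was found for Sox9 and Wnt5a. Each sequence covers the 300 bases from 250 before to 50 after an annotated start. The entries of Axl, Egfr and Tnc are shown because their responses to anti–PD-1 differed between diets past both thresholds, and those of Jun and Zeb2 because they hold AP-1 or CRE-like letters. On both strands, the windows were searched for the AP-1 letters TGANTCA, the CRE-like letters TGACNTCA, the E-box CACCTG bound by Zeb factors and the TEAD letters GGAATG. Capitals mark a match. Each sequence runs 5′ to 3′ on the strand of its gene, which is plus for Egfr and minus for the others.
Axl, chr7:25788684-25788983: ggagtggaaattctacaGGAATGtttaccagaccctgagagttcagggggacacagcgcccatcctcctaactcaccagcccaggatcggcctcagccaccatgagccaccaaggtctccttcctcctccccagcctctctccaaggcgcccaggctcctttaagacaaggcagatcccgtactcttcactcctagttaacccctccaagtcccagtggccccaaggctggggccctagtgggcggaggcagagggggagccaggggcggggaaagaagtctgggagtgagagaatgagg
Egfr, chr11:16751953-16752252: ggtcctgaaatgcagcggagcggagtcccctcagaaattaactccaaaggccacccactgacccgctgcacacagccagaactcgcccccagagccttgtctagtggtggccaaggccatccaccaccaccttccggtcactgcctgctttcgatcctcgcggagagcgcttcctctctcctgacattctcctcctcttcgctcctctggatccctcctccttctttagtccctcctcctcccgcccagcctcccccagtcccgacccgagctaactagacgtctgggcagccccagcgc
Tnc, chr4:64046966-64047265: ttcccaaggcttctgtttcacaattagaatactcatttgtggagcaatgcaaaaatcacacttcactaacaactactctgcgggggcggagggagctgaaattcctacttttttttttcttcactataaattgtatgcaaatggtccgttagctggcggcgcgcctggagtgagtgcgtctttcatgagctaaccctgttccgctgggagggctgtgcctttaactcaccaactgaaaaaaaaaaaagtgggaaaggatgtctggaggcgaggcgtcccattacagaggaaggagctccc
Jun, chr4:95052173-95052472: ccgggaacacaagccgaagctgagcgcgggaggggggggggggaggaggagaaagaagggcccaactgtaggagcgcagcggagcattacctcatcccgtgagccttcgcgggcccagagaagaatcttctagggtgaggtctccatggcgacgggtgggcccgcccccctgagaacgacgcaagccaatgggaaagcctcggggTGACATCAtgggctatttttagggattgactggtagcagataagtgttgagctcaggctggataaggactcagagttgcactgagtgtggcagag
Zeb2, chr2:45110228-45110527: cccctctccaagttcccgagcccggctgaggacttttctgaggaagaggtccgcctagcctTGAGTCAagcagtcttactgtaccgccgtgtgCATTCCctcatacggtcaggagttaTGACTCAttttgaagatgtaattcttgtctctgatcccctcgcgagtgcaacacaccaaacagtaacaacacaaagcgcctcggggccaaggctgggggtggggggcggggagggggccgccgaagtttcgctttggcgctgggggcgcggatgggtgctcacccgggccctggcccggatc

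The Axl window held the TEAD letters 233 bases before its start, and the Jun window held TGACATCA 45 bases before its start. The Zeb2 window shown belongs to the most downstream of 4 annotated starts and held TGAGTCA 189 bases and TGACTCA 132 bases before the start, with the TEAD letters in reverse, CATTCC, 157 bases before it. The other 3 Zeb2 windows held none of the 4 sets of letters. The windows of Egfr, Tnc, Ngfr and Sox2 also held none. Of all 27025 promoter windows, 7.93% held the AP-1 letters, 8.97% the CRE-like letters, 20.0% the E-box and 14.6% the TEAD letters.

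In nonobese mice, Tnc, Egfr and Wnt5a passed both thresholds with anti–PD-1, each lower than with isotype. Tnc was downregulated, with a log2 fold change of -1.61 (SE 0.55, FDR = 0.833). Egfr fell by 1.63 on the log2 scale (SE 0.62, FDR = 0.859) and Wnt5a by 1.61 (SE 0.69, FDR = 0.924). These 3 of 9 genes passed both thresholds, against 2.42% of all genes tested (2.31% lower and 0.115% higher). The median log2 fold change was -0.84 over the 9 genes and 0.02 over all genes.

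Axl had a log2 fold change of -0.84 (SE 0.30, FDR = 0.845), which is below the fold change threshold. Zeb1 had -0.51 (SE 0.27, FDR = 0.929) and Ngfr -1.21 (SE 0.78, FDR = 0.929). In Axl, Egfr, Wnt5a, Tnc and Zeb1, 5 of 9 genes, all 3 anti–PD-1 tumors were below all 3 isotype tumors. Of all genes, 5.37% were without overlap in this direction and 11.2% in either. Zeb2 had a log2 fold change of 0.09 (SE 0.17), Sox9 of 0.12 (SE 0.27) and Jun of -0.03 (SE 0.16). Tnc passed both thresholds without any single tumor. Egfr did not without nonobese isotype replicate 3 (-1.20) or nonobese anti–PD-1 replicate 1 (-1.35). Axl passed both thresholds as well without nonobese anti–PD-1 replicate 3 (-1.08). Wnt5a did not pass without any of the 3 nonobese isotype tumors (-1.66, -1.53 and -1.63 without replicates 1, 2 and 3) or without nonobese anti–PD-1 replicate 1 (-1.33) or 2 (-1.72).

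In obese mice, Axl was the single gene of the set that passed both thresholds with anti–PD-1, and it was upregulated. Its log2 fold change was 1.26 (SE 0.30, FDR = 0.220), a 2.39-fold higher level. This 1 of 9 compares with 2.44% of all genes tested (2.24% higher). The call was kept without any single tumor, with values from 1.01 to 1.52. The FDR of Axl ranged from 0.00769 with DESeq2 to 0.751 over the alternatives and was below 0.05 in 2 of 21 settings.

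Sox9 had a log2 fold change of -0.58 in obese mice (SE 0.27, FDR = 0.654). Axl and Sox9, 2 of 9 genes, did not overlap between the obese groups, against 12.4% of all genes. Egfr had 0.87 (SE 0.60, FDR = 0.776), Tnc 0.41 (SE 0.54, FDR = 0.890), Wnt5a 0.31 (SE 0.70), Ngfr 0.19 (SE 0.74) and Zeb1 0.18 (SE 0.27). Zeb2 had -0.09 (SE 0.17) and Jun -0.07 (SE 0.16). Without obese isotype replicate 1, Wnt5a also passed both thresholds, with 1.73.

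**Figure D3:**
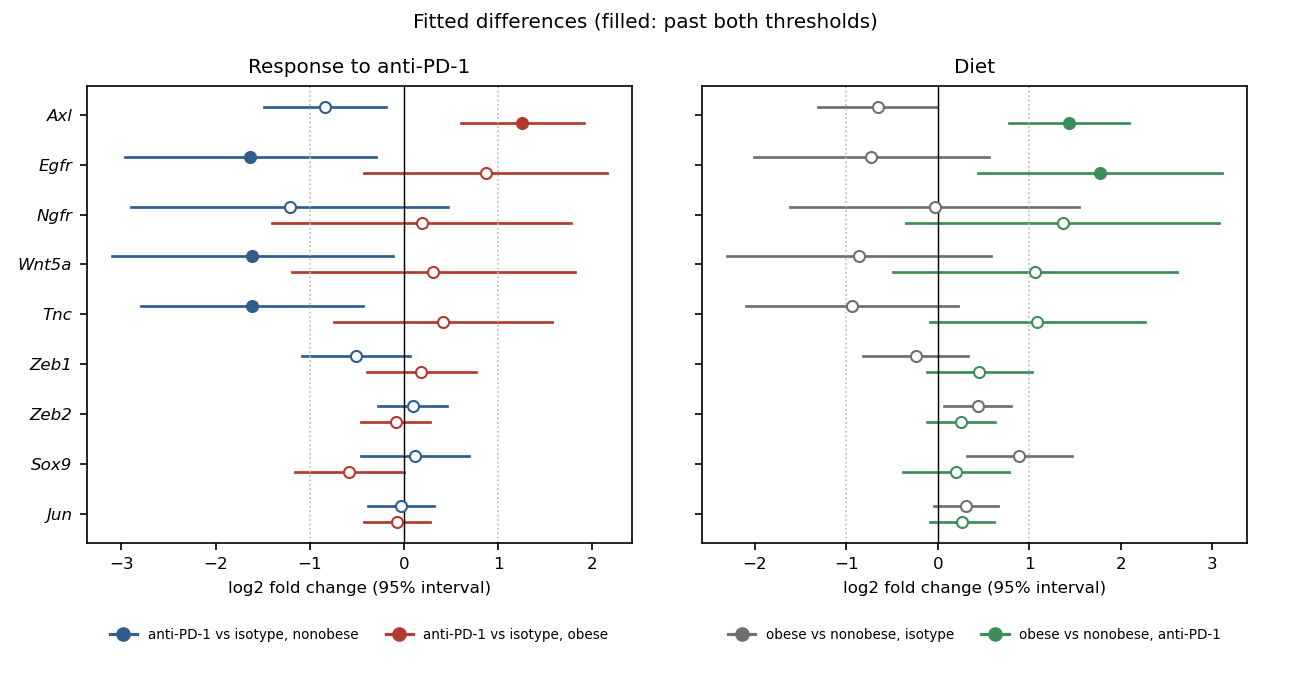
Log2 fold changes with 95% intervals from the model of 12 tumors, for the response to anti–PD-1 by diet (left) and obese against nonobese under each treatment (right). Filled points passed both thresholds, and dotted lines mark a fold change of 2. Axl lies at -0.84 in nonobese and 1.26 in obese mice, with intervals that do not overlap. The 4 comparisons share groups of tumors.

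The difference between the responses to anti–PD-1 in obese and nonobese mice was tested directly. Axl, Egfr and Tnc responded more positively in obese mice, by 2.09 (SE 0.43, FDR = 0.117), 2.50 (SE 0.86, FDR = 0.253) and 2.03 (SE 0.77, FDR = 0.290) on the log2 scale. These 3 of 9 genes compare with 5.76% of all genes tested (4.93% more positive). Wnt5a had a difference of 1.92 (SE 0.98, FDR = 0.431), Ngfr of 1.40 (SE 1.07, FDR = 0.602) and Zeb1 of 0.70 (SE 0.38, FDR = 0.462). Sox9 had -0.70 (SE 0.38, FDR = 0.464), Zeb2 -0.18 (SE 0.24) and Jun -0.04 (SE 0.23).

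The Axl difference passed both thresholds without any single tumor, and its FDR ranged from 0.000456 with DESeq2 to 0.412, below 0.05 in 4 of 20 settings. Tnc did not pass with a robust prior (2.03), without nonobese isotype replicate 3 (1.78) or without obese anti–PD-1 replicate 3 (1.58). Without obese isotype replicate 1, Wnt5a passed as well, with 3.34.

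Under isotype, no gene of the set passed both thresholds between obese and nonobese mice, against 1.37% of all genes tested. Sox9 was 1.86-fold higher in obese mice, with a log2 fold change of 0.89 (SE 0.27, FDR = 0.250). Zeb2 had 0.43 (SE 0.17, FDR = 0.326) and Axl -0.66 (SE 0.30, FDR = 0.375). Axl and Sox9, 2 of 9 genes, did not overlap between diets, against 19.4% of all genes. Tnc had -0.94 (SE 0.54, FDR = 0.458), Wnt5a -0.86 (SE 0.67), Egfr -0.73 (SE 0.60), Zeb1 -0.24 (SE 0.27), Jun 0.31 (SE 0.16, FDR = 0.427) and Ngfr -0.04 (SE 0.73). Without obese isotype replicate 1, Wnt5a (-2.28) and Tnc (-1.49) passed, and Tnc also passed without nonobese isotype replicate 1 (-1.22).

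Under anti–PD-1, Axl and Egfr were upregulated in obese mice compared with nonobese mice. Axl was 2.7-fold higher, with a log2 fold change of 1.43 (SE 0.30, FDR = 0.0699), and Egfr 3.41-fold higher, with 1.77 (SE 0.62, FDR = 0.311). These 2 of 9 genes compare with 4.25% of all genes tested (3.69% higher). Zeb2 had 0.25 (SE 0.17, FDR = 0.688), and it and Axl did not overlap between diets, against 13.6% of all genes. Tnc had 1.08 (SE 0.55, FDR = 0.533), Ngfr 1.36 (SE 0.80), Wnt5a 1.06 (SE 0.72), Zeb1 0.45 (SE 0.27), Jun 0.27 (SE 0.16) and Sox9 0.20 (SE 0.27). The median over the 9 genes was 1.06, against -0.01 over all genes.

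Axl kept its call under anti–PD-1 without any single tumor. Its FDR was below 0.05 in 6 of 21 settings and ranged from 0.000345 with DESeq2 to 0.357. Egfr did not pass without nonobese anti–PD-1 replicate 1 (1.49) or obese anti–PD-1 replicate 3 (1.27). Without obese anti–PD-1 replicate 1, Ngfr (1.79) and Tnc (1.44) passed. Tnc also passed without nonobese anti–PD-1 replicate 3 (1.59) or obese isotype replicate 2 (1.09), and with the block on replicate number (1.10), a filter of at least 1 count (1.07) or a model of the 6 tumors compared (1.08).

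As a mean over both treatments, no gene of the set passed both thresholds between diets, against 0.512% of all genes tested. Sox9 was higher in obese mice by 0.54 (SE 0.19, FDR = 0.327), Zeb2 by 0.34 (SE 0.12, FDR = 0.343) and Jun by 0.29 (SE 0.11, FDR = 0.405) on the log2 scale. In a two-sided exact permutation of diet within treatment, which has 400 arrangements and a smallest p of 0.005, the mean log2 CPM of Zeb2 was 0.34 higher in obese mice (exact p = 0.015), that of Jun 0.28 higher (exact p = 0.055) and that of Sox9 0.51 higher (exact p = 0.08). The exact p of the other 6 tested genes was between 0.455 and 0.895. Zeb2 was thus the single gene below 0.05 of 9 tested in this way, and these p-values are not adjusted for the 9 genes. The share of all genes below 0.05 was not computed for this permutation. By edgeR's test of the mean over both treatments it was 10.4%, so 1 of 9 is not read as a result about the set.

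Other genes of the same pathways were examined from lists of ligands, receptors, AP-1 subunits, epithelial-mesenchymal transition factors, neural crest genes and an invasive program. Of 8 tested ligands, 1 fell in nonobese mice, against 2.31% of all genes, and it was Gas6, the ligand of Axl. Gas6 went from 17.02 ± 9.09 CPM (SD, n = 3) with isotype to 6.94 ± 2.40 CPM with anti–PD-1, a log2 fold change of -1.28 (FDR = 0.841). In obese mice it was 9.28 ± 3.56 and 15.2 ± 6.68 CPM, and its response differed between diets by 1.98 (FDR = 0.221). Under anti–PD-1 it was higher in obese mice by 1.12 (FDR = 0.399). Gas6 did not pass in nonobese mice without isotype replicate 2 or anti–PD-1 replicate 1. The other tested ligands, of neurotrophin, TAM and Egfr family receptors, passed in no comparison.

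Of 15 tested receptors, 2 fell in nonobese mice, against 2.31% of all genes. Ror2, a receptor of Wnt5a, had a log2 fold change of -2.10 (FDR = 0.859), and Ntrk2, the receptor of brain-derived neurotrophic factor, of -1.75 (FDR = 0.912), with at most 1.48 CPM and 2.24 CPM in any tumor. Neither passed in nonobese mice without isotype replicate 2 or 3 or anti–PD-1 replicate 1. Their responses were more positive in obese mice, by 2.48 (FDR = 0.359) for Ror2 and 2.61 (FDR = 0.303) for Ntrk2. Under anti–PD-1, Ntrk2 was higher in obese mice by 2.27 (FDR = 0.259). Ntrk3, the receptor of neurotrophin-3, was higher in obese isotype tumors, at 4.67 ± 0.39 CPM (SD, n = 3) against 1.64 ± 0.35 CPM in nonobese isotype tumors (log2 fold change 1.51, FDR = 0.217). It fell with anti–PD-1 in obese mice by 1.20 on the log2 scale (FDR = 0.473), to 2.03 ± 0.14 CPM, and its response differed between diets by -1.38 (FDR = 0.342).

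All 26 genes of the invasive program were tested, and 4 fell in nonobese mice, against 2.31% of all genes, among them Lox, which crosslinks collagen, by 2.08 (FDR = 0.833), the matrix protein gene Tgfbi by 1.46 (FDR = 0.833) and the protease gene Mmp2 by 1.35 (FDR = 0.833). Of the 72 tested genes of all 6 lists, 7 fell in nonobese mice, and the count was 2 without nonobese anti–PD-1 replicate 1 (both in the invasive program), 3 without nonobese isotype replicate 2 and 4 without nonobese isotype replicate 3. In obese mice, 1 of 26 rose, against 2.24% of all genes, and this was Tgfbi, by 1.57 (FDR = 0.295). Its group means were 31.7 ± 10.4 CPM in nonobese isotype, 11.5 ± 4.40 in nonobese anti–PD-1, 13.4 ± 5.67 in obese isotype and 40.2 ± 20.3 in obese anti–PD-1 tumors (SD, n = 3). The response differed between diets in 5 of 26, against 5.76% of all genes, among them Tgfbi by 3.03 (FDR = 0.117), Lox by 2.57 (FDR = 0.208), Thbs1 by 1.31 (FDR = 0.277) and Mmp2 by 1.74 (FDR = 0.290). Tgfbi was lower in obese than nonobese mice under isotype by 1.22 (FDR = 0.296), and under anti–PD-1 Tgfbi and Lox were higher in obese mice by 1.81 (FDR = 0.108) and 1.72 (FDR = 0.280).

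In the other comparisons the count over the 6 lists also moved with single tumors and, in obese mice and under isotype, from 2 to 4 genes with a filter of at least 1 count. The shares of all genes past both thresholds were 2.44% in obese mice, 1.37% and 4.25% between diets under isotype and anti–PD-1 and 5.76% for the difference. In obese mice the count was 2, and 4 without isotype replicate 1. Between diets under isotype it was 2, and 8 without obese isotype replicate 1, 6 without nonobese isotype replicate 1 and 1 without replicate 2 of either isotype group. Under anti–PD-1 it was 4, and 8 and 1 without obese anti–PD-1 replicates 1 and 3. For the difference between responses it was 9, and 5 without obese isotype replicate 2 and 4 without obese anti–PD-1 replicate 3.

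None of the 8 AP-1 subunits, 6 tested transition factors or 9 tested neural crest genes passed both thresholds in any of the 6 comparisons with edgeR or DESeq2. At an unadjusted P below 0.05 alone, 3 of 8 AP-1 subunits were higher in obese mice as a mean over both treatments, against 10.4% of all genes in either direction. In each of the 6 comparisons 1 of 9 neural crest genes was lower, which is near the 5.23% to 13.3% of all genes in either direction. The log2 fold change of Sox10, 1 of these 9, between diets was -0.45 under isotype (FDR = 0.250) and -0.32 as a mean (FDR = 0.248). In nonobese mice, the median log2 fold change of the transition factors was -0.34, that of the AP-1 subunits -0.19 and that of the neural crest genes -0.08.

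Because the tumors are bulk tissue, marker lists of 10 genes each were summed for the cell types the tumors could hold. None of the 10 melanocytic markers passed both thresholds in any comparison with edgeR or DESeq2, and at an unadjusted P below 0.05 alone 3 of 10 were higher in obese mice under isotype, against 13.3% of all genes in either direction. Their summed level ranged from 25920 to 32430 CPM over all tumors. It was 25920 to 28590 CPM in nonobese isotype, 26900 to 30150 in nonobese anti–PD-1, 28840 to 31380 in obese isotype and 28050 to 32430 in obese anti–PD-1 tumors. The sums did not overlap between diets under isotype, where 19.4% of all genes did not overlap either, and did overlap under anti–PD-1. Fibroblast markers fell in nonobese mice with anti–PD-1 in 7 of 10 genes, against 2.31% of all genes, from a summed 673.4 to 2940 CPM with isotype to 319.1 to 620.3 CPM. These 7 became 4 and 3 without nonobese isotype replicates 2 and 3 and 3 without nonobese anti–PD-1 replicate 1. In obese mice none of the 10 passed with edgeR or DESeq2, 2 did without obese anti–PD-1 replicate 1, and the sums were 245.2 to 1192 CPM with isotype and 467.8 to 1988 CPM with anti–PD-1. Macrophage markers fell in nonobese mice in 5 of 10 genes, against the same 2.31%, from 239.0 to 520.3 CPM down to 158.7 to 232.3 CPM. These 5 became 8 without nonobese isotype replicate 1 or anti–PD-1 replicate 3, 2 without nonobese isotype replicate 2 and 3 without nonobese anti–PD-1 replicate 1. In obese mice 1 of 10, Csf1r, rose, 6 did without obese isotype replicate 1 or obese anti–PD-1 replicate 1, 2 without obese isotype replicate 3 and 0 without obese isotype replicate 2 or obese anti–PD-1 replicate 2 or 3 or with DESeq2, and the sums went from 192.7 to 331.1 CPM up to 272.1 to 534.7 CPM. No fibroblast or macrophage marker was at 0 in any tumor.

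The response differed between diets in 7 of 10 fibroblast and 10 of 10 macrophage markers, each more positive in obese mice, against 4.93% of all genes, and in 5 to 9 and 8 to 10 of them without any single tumor. Col1a1 and Col3a1 were the most abundant fibroblast markers, with means of 413.5 and 342.3 CPM, and C1qa and C1qb the most abundant macrophage markers, with 59.95 and 56.5 CPM. The response differed in the same direction in 9 of 10 adipocyte and 6 of 7 tested T and NK lymphocyte markers. It also differed in 1 of 10 endothelial, 1 of 10 skeletal muscle and 1 of 2 tested keratinocyte markers. Cd3d, Cd3e and Cd3g had at most 0.357 CPM outside obese anti–PD-1 tumors and passed the count filter through those tumors. The keratinocyte marker Krt5 passed it through nonobese isotype tumors. The T and NK and keratinocyte counts and medians are thus descriptions, fixed in part by the filter. The median difference was 4.58 over the adipocyte, 4.29 over the T and NK, 3.51 over the 2 keratinocyte, 2.59 over the skeletal muscle, 2.17 over the fibroblast, 1.87 over the macrophage, 0.65 over the endothelial and -0.09 over the Schwann cell list on the log2 scale, against -0.04 over all genes. Over the melanocytic list it was -0.185. The responses of Axl, Egfr and Tnc thus moved with those of several host cell lists, and the part of these cells in the result was not tested. T and NK lymphocyte markers rose with anti–PD-1 in obese mice in 5 of 7 tested genes, against 2.24% of all genes. This count was fixed in part by the filter. Summed over all 10 genes of the list, they went from 5.46 to 7.11 CPM up to 8.74 to 23.5 CPM. Lck was the most abundant gene of the list, with a mean of 4.89 CPM over the 12 tumors, against 0.870 for the next, Cd8a. The log2 fold change of Lck with anti–PD-1 in obese mice was 0.23 (FDR = 0.867). Cd3d and Cd3g were at 0 in 3 tumors each. Adipocyte markers rose with anti–PD-1 in obese mice in 9 of 10 genes, against the same 2.24%, from 23.1 to 33.4 CPM up to 61.9 to 153.1 CPM. They fell with anti–PD-1 in nonobese mice in 4 of 10, or 2 of 10 without nonobese anti–PD-1 replicate 1. The 5 T and NK genes became 8 without obese anti–PD-1 replicate 1, where more of the list was tested. Endothelial sums were 212.4 to 258.5 CPM in nonobese isotype, 160.1 to 231.5 in nonobese anti–PD-1, 128.5 to 222.4 in obese isotype and 165.9 to 255.4 in obese anti–PD-1 tumors, and 1 of 10 endothelial markers fell with anti–PD-1 in nonobese mice. Skeletal muscle sums were 18.2 to 381.2 CPM in nonobese isotype, 9.30 to 391.3 in nonobese anti–PD-1, 11.8 to 140.6 in obese isotype and 43.8 to 636.3 in obese anti–PD-1 tumors. With anti–PD-1 in obese mice, where Axl rose, all 10 muscle markers had positive log2 fold changes (median 2.43), and Mylpf and Actn3 passed both thresholds, against the same 2.24%. These 2 became 10 with the replicate block, 9 with at least 1 count or only the 6 tumors compared and 0 with a robust prior. They became 0 without obese isotype replicate 1 or 2 or obese anti–PD-1 replicate 3, and 1 without nonobese isotype replicate 2 or 3 or replicate 2 of either anti–PD-1 group. They became 4, 6, 7, 9 and 10 without nonobese anti–PD-1 replicate 3, nonobese anti–PD-1 replicate 1, nonobese isotype replicate 1, obese anti–PD-1 replicate 1 and obese isotype replicate 3. The part of muscle in the Axl response was not tested. Schwann cell sums did not overlap between diets, with 194.1 to 233.3 CPM in nonobese and 239.7 to 341.9 CPM in obese mice. Mbp made up most of these sums, with a mean of 147.4 CPM, and the mean log2 CPM of the list did overlap between diets, at 1.92 to 2.16 and 2.01 to 2.31. None of the 8 tested Schwann cell markers passed both thresholds with edgeR or DESeq2, and at an unadjusted P below 0.05 alone 2 of 8 were higher in obese mice under isotype and 3 of 8 as a mean, against 13.3% and 10.4% of all genes in either direction. Among them, Cdh19 had 0.77 (FDR = 0.107) and Mbp 0.62 (FDR = 0.141) under isotype. Sox9 and Zeb2 were higher in obese mice in the same comparisons, and the part of Schwann cell markers in this was not tested. Of the keratinocyte markers, 2 of 10 were tested, sums were at most 13.1 CPM, and Krt1 and Krt10 were at 0 in all 12 tumors. With anti–PD-1 in nonobese mice, where Egfr, Wnt5a and Tnc fell, Krt5 fell by 4.56 (FDR = 0.833), as 1 of the 2 tested keratinocyte markers, and Cd4 by 1.14 (FDR = 0.925), as 1 of 7 T and NK markers, against 2.31% of all genes. The median of Krt5 was 0.867 CPM in nonobese isotype tumors, 0.0892 CPM in nonobese anti–PD-1 tumors and 0 CPM in both obese groups. It passed the count filter through the group where it was high, so the keratinocyte count is a description. The keratinocyte count became 0 without nonobese isotype replicate 2 and 2 without nonobese isotype replicate 3. The T and NK count became 0 with DESeq2, and 0 without nonobese isotype replicate 2 or 3, nonobese anti–PD-1 replicate 1 or 2, any obese isotype tumor or obese anti–PD-1 replicate 2. It became 2 without nonobese isotype replicate 1 or nonobese anti–PD-1 replicate 3, and 3 with the replicate block.

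Between diets, the same lists also moved with Axl and Egfr. Under anti–PD-1, 7 of 10 macrophage, 8 of 10 adipocyte, 3 of 10 fibroblast and 1 of 10 endothelial markers were higher in obese mice, against 3.69% of all genes. Of the T and NK list, 6 of 7 tested markers were higher as well. That count is a description, since Cd3d, Cd3e and Cd3g passed the count filter through obese anti–PD-1 tumors. The endothelial marker was Tek, with a log2 fold change of 1.40 (FDR = 0.358), and it did not pass without nonobese anti–PD-1 replicate 1 or obese anti–PD-1 replicate 3. The 8 adipocyte markers became 5 without obese anti–PD-1 replicate 3. The 3 fibroblast markers became 6, 5 and 7 without nonobese isotype replicate 1, obese isotype replicate 2 and obese anti–PD-1 replicate 1, 1 without nonobese anti–PD-1 replicate 2 and 0 without nonobese anti–PD-1 replicate 1 or obese anti–PD-1 replicate 2 or 3. Under isotype, where Axl had -0.66, 4 of 10 adipocyte and 2 of 10 macrophage markers were lower in obese mice, against 1.37% of all genes in either direction. These 4 became 2 without nonobese isotype replicate 2 or obese isotype replicate 1, and these 2 became 0 without replicate 2 of either isotype group and 1 without nonobese isotype replicate 3. The fibroblast marker Col1a1, the T cell marker Cd3d and the keratinocyte marker Krt5 were also lower there, as 1 of 10, 1 of 7 and 1 of 2 tested markers of their lists. Krt5 was tested through nonobese isotype tumors, where it was high, so the keratinocyte count is a description. The fibroblast count became 7 without nonobese isotype replicate 1, 2 without obese isotype replicate 1 or 3 or obese anti–PD-1 replicate 1, and 0 without nonobese isotype replicate 2 or 3 or obese isotype replicate 2. The T and NK count became 0 without nonobese isotype replicate 2 or 3, obese isotype replicate 1 or 2 or obese anti–PD-1 replicate 2, and the keratinocyte count 0 without nonobese isotype replicate 2 and 2 without nonobese isotype replicate 3. All 10 muscle markers had negative log2 fold changes there (median -2.07) and none passed both thresholds in the model of 12 tumors or with DESeq2, nor had an unadjusted P below 0.05 in that model. With the replicate block 10 passed, and 3 with at least 1 count or only the 6 tumors compared. Of these markers, 7 passed without nonobese isotype replicate 1, 10 without obese isotype replicate 3, 2 without nonobese anti–PD-1 replicate 1 and 1 without obese anti–PD-1 replicate 1. The part of these cells in the differences between diets was not tested.

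Across the 12 tumors, the log2 CPM of each of the 9 genes was compared with the mean log2 CPM of each marker list, 81 pairs in all, by two-sided permutation of the tumors. In 19 pairs the adjusted p was below 0.05, all with a positive r, and in 12 pairs without nonobese anti–PD-1 replicate 1. The share of all genes that correlate in this way with the lists was not computed. The counts of pairs are therefore descriptions and do not set these genes apart from others. Axl followed the macrophage list most closely, with Pearson r = 0.925 (permutation p = 1e-05, the smallest that 100000 permutations can give, adjusted p = 0.00027) and Spearman rho = 0.944 (adjusted p = 0.00081). Without the 2 tumors farthest from the median of the list, r was 0.937, and it was 0.888 on deviations from group means. Egfr followed the fibroblast list with r = 0.944 (adjusted permutation p = 0.00027) and rho = 0.930 (adjusted p = 0.00135), and r = 0.914 without the 2 outermost tumors. Other lists were about as close. Egfr had r = 0.923 with the macrophage list (adjusted permutation p = 0.000972, 0.932 without the 2 outermost tumors) and 0.895 with the endothelial list (adjusted permutation p = 0.00121, 0.791 without them). Axl had r = 0.892 with the T and NK list (adjusted permutation p = 0.000972, 0.781 without them), and the order of the lists within a gene was not tested.

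Tnc followed the endothelial list with r = 0.921 (adjusted permutation p = 0.00027, rho = 0.888) and the fibroblast list with r = 0.904 (adjusted permutation p = 0.00104, rho = 0.881), with 0.867 and 0.877 without the 2 outermost tumors. Zeb1 followed the fibroblast list with r = 0.890 (adjusted permutation p = 0.00144, rho = 0.937) and Wnt5a the endothelial list with r = 0.877 (adjusted permutation p = 0.00154, rho = 0.846). Zeb1 was about as close to the endothelial list (r = 0.883, adjusted permutation p = 0.00104) and the macrophage list (r = 0.842, adjusted permutation p = 0.00709), and Tnc to the macrophage list (r = 0.877, adjusted permutation p = 0.00287). On deviations from group means, the values were 0.840 for Zeb1 with the fibroblast list and 0.816 for Wnt5a with the endothelial list. Ngfr reached r = 0.724 with the fibroblast list (adjusted permutation p = 0.0464), but rho was 0.566 (adjusted p = 0.151) and the adjusted permutation p was 0.0508 on deviations from group means. With the macrophage list it had r = 0.713 (adjusted permutation p = 0.0486) and rho = 0.573 (adjusted p = 0.145). On deviations from group means, r of Ngfr with the macrophage list was 0.774 (adjusted permutation p = 0.0201). Axl and the adipocyte list had r = 0.755 (adjusted permutation p = 0.0230), which dropped to 0.202 on deviations from group means (adjusted p = 0.639), so it was weak within groups.

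Sox9, Zeb2 and Jun were in none of the 19 pairs, and their r with the fibroblast, endothelial and macrophage lists lay between -0.447 and 0.063. By Pearson's r, no gene of the set had an adjusted p below 0.05 with the melanocytic list, where r ranged from -0.606 for Wnt5a to 0.426 for Zeb2, nor with the keratinocyte, Schwann cell or skeletal muscle lists over all 12 tumors. By Spearman's rho, Wnt5a did so with the keratinocyte list (rho = 0.727, adjusted permutation p = 0.0469). The p-values on deviations from group means tend to be too small, as stated above, so a count of pairs by them is a description. By them, 21 pairs had an adjusted p below 0.05. These included the Schwann cell list with Egfr (r = 0.806, adjusted permutation p = 0.0103), Zeb1 (r = 0.805, 0.00989), Tnc (r = 0.730, 0.0334) and Axl (r = 0.729, 0.0334), and the skeletal muscle list with Egfr (r = 0.728, 0.0347).

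**Figure D4:**
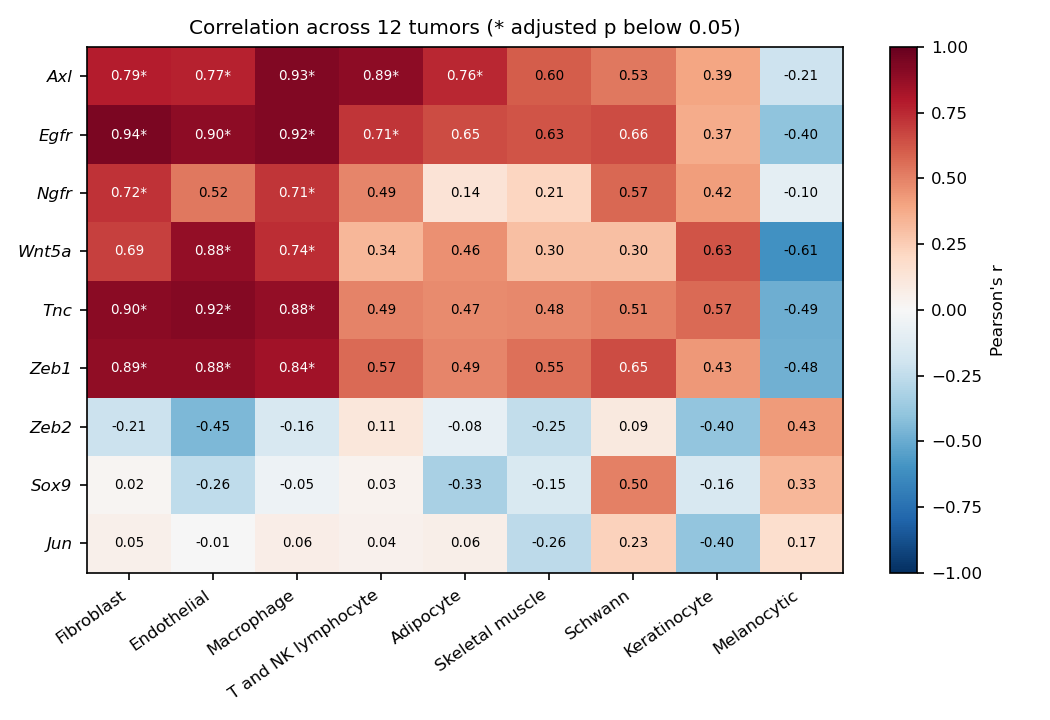
Pearson's r across 12 tumors between the log2 CPM of each gene (rows) and the mean log2 CPM of each marker list (columns). Stars mark the 19 of 81 pairs with an adjusted permutation p below 0.05, which were 12 without nonobese anti–PD-1 replicate 1. The share over all genes was not computed. Axl, Egfr, Ngfr, Wnt5a, Tnc and Zeb1 hold all stars, and Zeb2, Sox9 and Jun hold none.

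Individual tumors followed a similar but not identical order. The mean log2 CPM of the macrophage list was lowest in nonobese anti–PD-1 replicate 1 (3.46) and obese isotype replicate 2 (3.51), and Axl was at its lowest in obese isotype replicate 2 and next lowest in nonobese anti–PD-1 replicate 1. The fibroblast list was also lowest in these tumors, at 3.04 and 3.11, and these tumors had the lowest Egfr of the 12. Obese anti–PD-1 replicate 1 had a fibroblast value of 3.49, against 5.16 and 5.27 in the other tumors of its group, and had the lowest Axl, Egfr, Tnc, Zeb1 and Ngfr of that group. Nonobese isotype replicate 1 likewise had 3.79 against 5.49 and 5.56 and the lowest Egfr, Tnc and Zeb1 of its group. The labels give no batch.

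**Figure D5:**
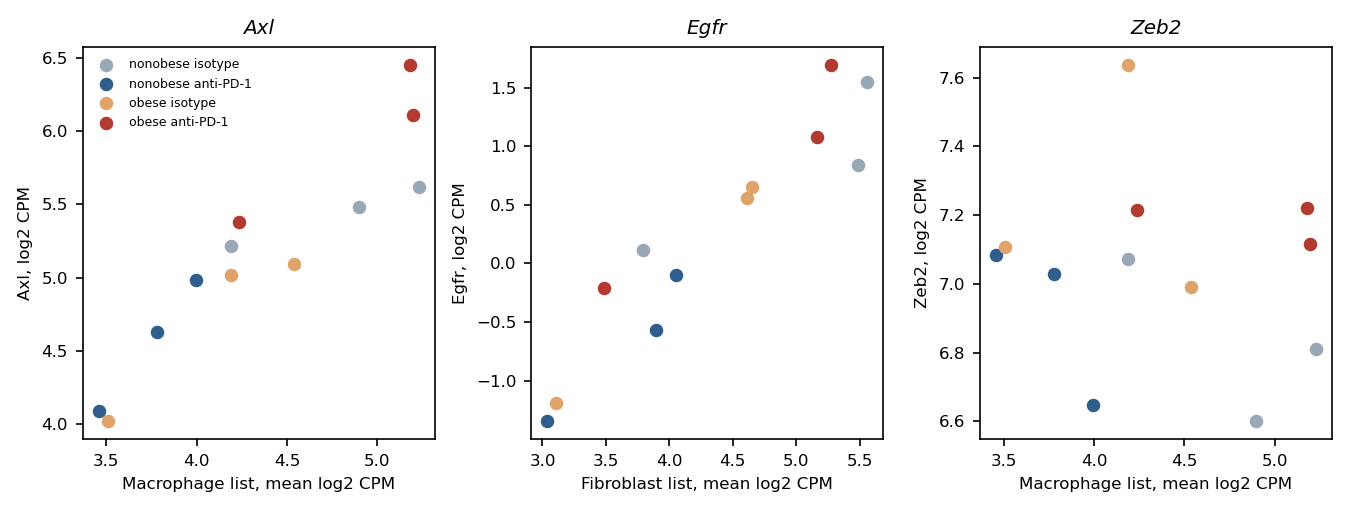
Log2 CPM of Axl, Egfr and Zeb2 against the mean log2 CPM of the macrophage, fibroblast and macrophage lists, 1 point per tumor, colored by group. Axl rises with the macrophage list (r = 0.925) and Egfr with the fibroblast list (r = 0.944) across all groups, while Zeb2 does not follow the macrophage list (r = -0.158).

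Among themselves, the genes formed a correlated group. Of 36 pairs, 9 had an adjusted permutation p below 0.05, all among Axl, Egfr, Wnt5a, Tnc and Zeb1 and all positive. The share among pairs of all genes was not computed. Egfr and Zeb1 had r = 0.943 (adjusted permutation p = 0.00036, rho = 0.986), Egfr and Tnc r = 0.920 (adjusted permutation p = 0.00054, rho = 0.902) and Tnc and Zeb1 r = 0.912 (adjusted permutation p = 0.00096, rho = 0.909). Without the 2 tumors farthest from the median, these were 0.883, 0.904 and 0.872. Axl and Egfr had r = 0.867 (adjusted permutation p = 0.00279, rho = 0.860), with 0.724 without the 2 outermost tumors.

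The genes most like each member over the 12 tumors, by Pearson's r of log2 CPM among all genes tested, are given as a description. Axl was closest to the interferon-induced genes Oasl2 (r = 0.973) and Oas3 (r = 0.967) and to Tgfbi (r = 0.963). Egfr and Zeb1 shared the chemerin receptor gene Cmklr1 as the closest gene, with r = 0.971 and 0.954. The next for Egfr were Tlr5 (0.964) and Slfn5 (0.962), and for Zeb1 the basement membrane genes Nid1 (0.951) and Lama2 (0.948). Tnc was closest to Il4ra (0.955), Slc38a4 (0.951) and the collagen gene Col5a1 (0.949), and Wnt5a was close to the endothelial gene Pecam1 (0.918) and to Pde2a (0.913).

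Zeb2 was closest to Slitrk2 (0.943), Ptbp3 (0.930) and Nceh1 (0.930), and Jun to Mogat1 (0.898), Fam171a1 (0.843) and Ptplad2 (0.835). Sox9 was closest to Gm11744 (0.893), Dhx32 (0.872) and Adk (0.864), and Ngfr to Efemp1 (0.879), Clec3b (0.875) and Eif2s3y (0.866). The closest genes of Zeb2, Jun, Sox9 and Ngfr shared no gene with those of the other members.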

How the data were processed

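The authors deposited raw counts, whole numbers per gene without normalization, for 23420 genes in 12 tumors. Stranded mRNA libraries were sequenced, and the submitters' processing notes name FastQC 0.11.5, STAR 2.7.0f, HTSeq 0.9.1, edgeR 3.28.1 and the build mm10. Every count column was matched to a tumor by its name, and 0 columns were left unused. The 10 genes, the role lists and the marker lists were chosen with earlier results of these data known. The counts had no molecular identifiers, so the floor of 3 counts covers counting error only.

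Counts were filtered with filterByExpr, scaled by TMM and fitted with 4 group means and 8 residual degrees of freedom in edgeR 4.0.16 under R 4.3.3, with the earlier form of glmQLFit and quasi-likelihood F-tests. Standard errors were derived from the F statistic, and intervals are 95%. Log2 CPM used a prior count of 2. Diet was also tested by exact permutation within treatment, and correlations by 100000 permutations, with scipy 1.17.1. Exon lengths and coordinates are from GENCODE M21 (GRCm38). Nothing in the labels gives a batch.

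All 10 genes are named. From each role list, up to 4 genes past both thresholds per comparison are named by smallest P. From each marker list the 2 most abundant genes were to be named, and other markers are named where a count needed them. For each member the 3 most correlated genes are named, except that 1 gene that this rule would name is not reported here.

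Before use, the fits were run on simulated data of 12945 genes in which 200 had a 3-fold change. For the response in obese mice, edgeR found 100% of these at an FDR below 0.05, beside 6 genes that were not changed. For diet under anti–PD-1 it found 100% beside 11, and for the difference of the responses 94% beside 5. DESeq2 found 99.5%, 100% and 95.5% beside 25, 29 and 29. At the thresholds used for calls, edgeR found 99%, 99.5% and 98% beside 26, 16 and 81. Alternatives were DESeq2 1.42.0, RLE scaling, other filters, other forms of glmQLFit, a replicate block, only the 6 tumors compared, a prior count of 0.5 and leaving out each tumor.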

Additional observations from a re-analysis of the deposited data

Results flagged for a closer look

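The response to anti–PD-1 differed between obese and nonobese mice in 3 of the 9 genes tested, by edgeR's test of that difference, with more than 2-fold and an unadjusted P below 0.05, against 5.76% of all genes (4.93% more positive in obese mice). Axl differed by 2.09, Egfr by 2.50 and Tnc by 2.03 on the log2 scale, each more positive in obese mice. None had an FDR below 0.05 in the edgeR model of 12 tumors (0.117, 0.253 and 0.290). Axl did in 4 of 20 settings, which were DESeq2 (0.000456) and edgeR with at least 1 count (0.0289), without nonobese isotype replicate 1 (0.0466) and without obese anti–PD-1 replicate 1 (0.0161). Axl was higher with anti–PD-1 in 3 of 3 obese tumors than in any obese isotype tumor and lower in 3 of 3 nonobese tumors than in any nonobese isotype tumor. Egfr and Tnc were lower in 3 of 3 nonobese tumors and overlapped between the obese groups. The response also differed in the same direction in 10 of 10 macrophage, 7 of 10 fibroblast and 9 of 10 adipocyte markers. It did so in 6 of 7 tested T and NK lymphocyte markers. That count is a description, since Cd3d, Cd3e and Cd3g passed the count filter through obese anti–PD-1 tumors. The part of these cells in the differences of Axl, Egfr and Tnc was not tested.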

How the results depend on the processing

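The counts of members past both thresholds (3 in nonobese mice, 1 in obese mice, 0 and 2 between diets under isotype and anti–PD-1, 0 as a mean over treatments and 3 in the difference) stayed within 1.5 times under DESeq2, RLE scaling, a robust prior, at least 1 count, models of 6 tumors and glmQLFit in its current form. With at least 10 counts in every tumor, the filter removed Egfr, Wnt5a and Ngfr and the counts were 1 in nonobese mice and 1 between diets under anti–PD-1. Leaving out each tumor gave 1 to 4, 1 to 2, 0 to 2, 1 to 4, 0 to 0 and 2 to 4 members, and 12 to 22 of the 81 marker pairs, with 12 without nonobese anti–PD-1 replicate 1. The count of genes with an FDR below 0.05 depended most on the tool: edgeR gave 0, 0, 0, 50, 24 and 0 and DESeq2 9, 105, 200, 270, 172 and 283 in the same order, and models of only the 6 tumors compared gave 0 instead of 50 under anti–PD-1. The cause was not tested.

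With the replicate number as a block, the member counts were 3, 1, 0, 3, 0 and 3, and 95 instead of 50 genes had an FDR below 0.05 between diets under anti–PD-1. Tumors of the same number had a mean r of 0.133 over 18 pairs (10 over 0.1), and tumors of different numbers in different groups -0.0623 over 36 pairs (13 over 0.1). The skeletal muscle score was lowest in replicate 1 in all 4 groups. Since the labels do not say what a number shares and not every same-numbered pair was over 0.1, the numbers were not taken to pair the tumors. The block also turned 2 values near 0, Ngfr between diets under isotype (0.11) and Wnt5a as a mean over treatments (-0.0090). The current form of glmQLFit turned Ngfr under isotype (0.018), and at least 10 counts in every tumor turned Jun in the difference (0.016).

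Leaving out single tumors turned no value past both thresholds. It turned others, on the log2 scale, over these ranges. In nonobese mice, these were Sox9 (-0.076 to 0.24), Zeb2 (-0.014 to 0.22) and Jun (-0.13 to 0.084). In obese mice, they were Ngfr (-0.38 to 0.96), Wnt5a (-0.29 to 1.73), Tnc (-0.034 to 0.97), Zeb1 (-0.039 to 0.42), Zeb2 (-0.20 to 0.15) and Jun (-0.18 to 0.087). Between diets, they were Ngfr under isotype (-0.82 to 0.45), Sox9 under anti–PD-1 (-0.070 to 0.49) and, as means, Wnt5a (-0.61 to 0.31), Tnc (-0.20 to 0.32) and Zeb1 (-0.020 to 0.21). In the difference, they were Zeb2 (-0.31 to 0.058) and Jun (-0.15 to 0.12).

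The counts of all genes past both thresholds, which stand behind the shares given, moved with the filter on low counts. They were 317, 320, 179, 557, 67 and 754 in the order above, 456, 508, 326, 791, 191 and 1022 with at least 1 count, and 171, 160, 72, 313, 20 and 451 where every tumor needed 10 counts. With at least 1 count, 1 role gene instead of 0 passed as a mean over treatments.

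Counting error weighs most on Ngfr and Wnt5a, with 1 to 35 counts per tumor, and on Egfr, with as few as 5.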
